A study of Mus musculus with 8 samples.

Results

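Messenger RNA of 5 myeloid transcription factor genes, Spi1, Gfi1, Cebpa, Cebpb and Cebpd, was followed through 6 Affymetrix probe sets (groups of short probes read out as a single value) of the 45101 in the deposited table. The probe sets were chosen by their identifiers, which were supplied together with the gene names: 1418747_AT for Spi1, 1417679_AT for Gfi1, 1418982_AT for Cebpa, 1418901_AT and 1427844_A_AT for Cebpb, and 1423233_AT for Cebpd. The table itself carries no gene names, and 0 of its identifiers were found in the RefSeq gene table at hand, so this naming was not checked against a platform annotation. Cebpb is the gene with 2 probe sets, which report on the same gene and are not independent of each other.

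The cells were mouse bone marrow progenitors, from wild-type or miR-223 null mice, grown in SILAC-IMDM, a medium made for isotope labelling of proteins. All 4 groups received granulocyte colony-stimulating factor (G-CSF) and SCF (stem cell factor, which binds c-Kit). Day 4 cells of either genotype had both factors for 4 days and were sorted as progenitors with c-Kit and without Gr-1 on their surface. Day 8 cells of either genotype had both factors for 6 days, then 42 hours without SCF, and were sorted as mature neutrophils with Gr-1 and without c-Kit. Each of the 4 groups (wild-type day 4, null day 4, wild-type day 8, null day 8) had 2 arrays. The labels give no strain, age, sex or construction of the null allele, and do not say whether the 2 replicates came from separate animals or cultures, so p-values measure only the spread between these arrays. Kit and the Gr-1 antigen, on which the cells were sorted, and miR-223 itself could not be looked up, because their probe sets are not paired with genes here.

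Neutrophils arise from granulocyte-monocyte progenitors under a small set of transcription factors. PU.1, the ETS family protein encoded by Spi1, opens myeloid regulatory regions and serves the granulocyte and the monocyte branch alike. C/EBP alpha (Cebpa) is needed for the first steps of granulocyte formation, and C/EBP beta (Cebpb) and C/EBP delta (Cebpd), related basic leucine zipper proteins, act later, in emergency granulopoiesis and in mature and activated myeloid cells. GFI1 (Gfi1) is a zinc finger repressor that holds back monocyte genes in granulocyte precursors. PU.1 and C/EBP proteins have also been described as activators of the miR-223 gene, a microRNA gene of the myeloid lineage.

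The microRNA removed in the null cells is shown first, since every genotype comparison rests on its loss. Its 3p arm, from RefSeq (GRCm38.p6, chrX:96242884-96242905, plus strand), is printed 5′ to 3′ with the seed, bases 2 to 8, in capitals.
mmu-miR-223-3p: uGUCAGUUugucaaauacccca

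The 250 bases upstream of an annotated start are shown for Gfi1 and Cebpa, whose signal fell with maturation, and Cebpb, whose signal rose. They come from the RefSeq promoter table, build GRCm38.p6, which held 3 of the 5 genes. Gfi1 lies on the minus strand (chr5:107725806-107726055), Cebpa on the plus strand (chr7:35119043-35119292) and Cebpb on the plus strand (chr2:167688665-167688914). Capitals mark matches on either strand to 5 motifs. They include a C/EBP type motif (TTGCNNAA), an ETS type motif (GAGGAAG), a GFI1 type motif (AAATCAC) and the TATA box (TATAAA). The last is TGACGC, a cAMP response half-site (TGACG) with a C after it. Half-sites followed by another base were not searched for.
Gfi1: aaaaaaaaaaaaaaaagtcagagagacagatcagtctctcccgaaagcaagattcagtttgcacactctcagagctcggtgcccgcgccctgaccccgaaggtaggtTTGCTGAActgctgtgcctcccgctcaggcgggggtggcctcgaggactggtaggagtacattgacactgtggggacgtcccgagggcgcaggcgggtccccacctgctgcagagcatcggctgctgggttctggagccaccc
Cebpa: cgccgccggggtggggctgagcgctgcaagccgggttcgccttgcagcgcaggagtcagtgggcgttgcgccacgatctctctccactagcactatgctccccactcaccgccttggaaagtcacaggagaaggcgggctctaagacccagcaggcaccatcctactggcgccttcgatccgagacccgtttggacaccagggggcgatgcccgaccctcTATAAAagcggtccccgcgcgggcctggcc
Cebpb: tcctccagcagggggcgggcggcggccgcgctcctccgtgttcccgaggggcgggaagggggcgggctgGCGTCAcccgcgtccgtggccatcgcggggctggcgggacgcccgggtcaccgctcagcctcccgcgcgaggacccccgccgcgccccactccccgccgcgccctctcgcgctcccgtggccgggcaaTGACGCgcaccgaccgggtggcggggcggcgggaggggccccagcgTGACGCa

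The 3 windows shared no motif. The Gfi1 window held a C/EBP type match (TTGCTGAA), which began 143 bases before the start, and 9.56% of the 32851 promoter windows of the table hold such a match. The Cebpa window held a TATA box that began 30 bases before the start, found in 12.4% of windows. The Cebpb window held 3 matches to TGACGC, beginning 181, 53 and 7 bases before the start, and 6.12% of windows hold at least 1. G and C made up 81.6% of the Cebpb window, against 59.2% for Gfi1 and 66.4% for Cebpa. The shares of windows were not adjusted for base content. Neither the ETS type motif (10.6% of windows) nor the GFI1 type motif (2.75%) was found in these 3 windows. The Gfi1 table entry has a further start, whose window held none of the 5 motifs. The C/EBP type match is thus in 1 of the 2 Gfi1 windows, the 1 printed. The matches describe letters in these windows, and no binding was measured.

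Values are probe set signals as deposited, on a log scale whose base is not stated. They were taken as log2 from their range, so a difference of 1 is read as a 2-fold change and every fold here depends on that reading. Levels were not compared between probe sets, because the signal also depends on the probes. All 6 probe sets passed the filter on dim signal (mean over all arrays at or above 5.51), and the lowest single value of any of them was 7.45. Replicates of a group correlated at 0.993 to 0.997 across the 22519 probe sets tested. Differences were tested with limma on all 22519, and a probe set was called at a Benjamini-Hochberg adjusted p below 0.05. Since 0.333 is the smallest p that exact permutation of 2 against 2 arrays allows, each call leans on limma's pooling of the spread over groups and probe sets.

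**Figure D1:**
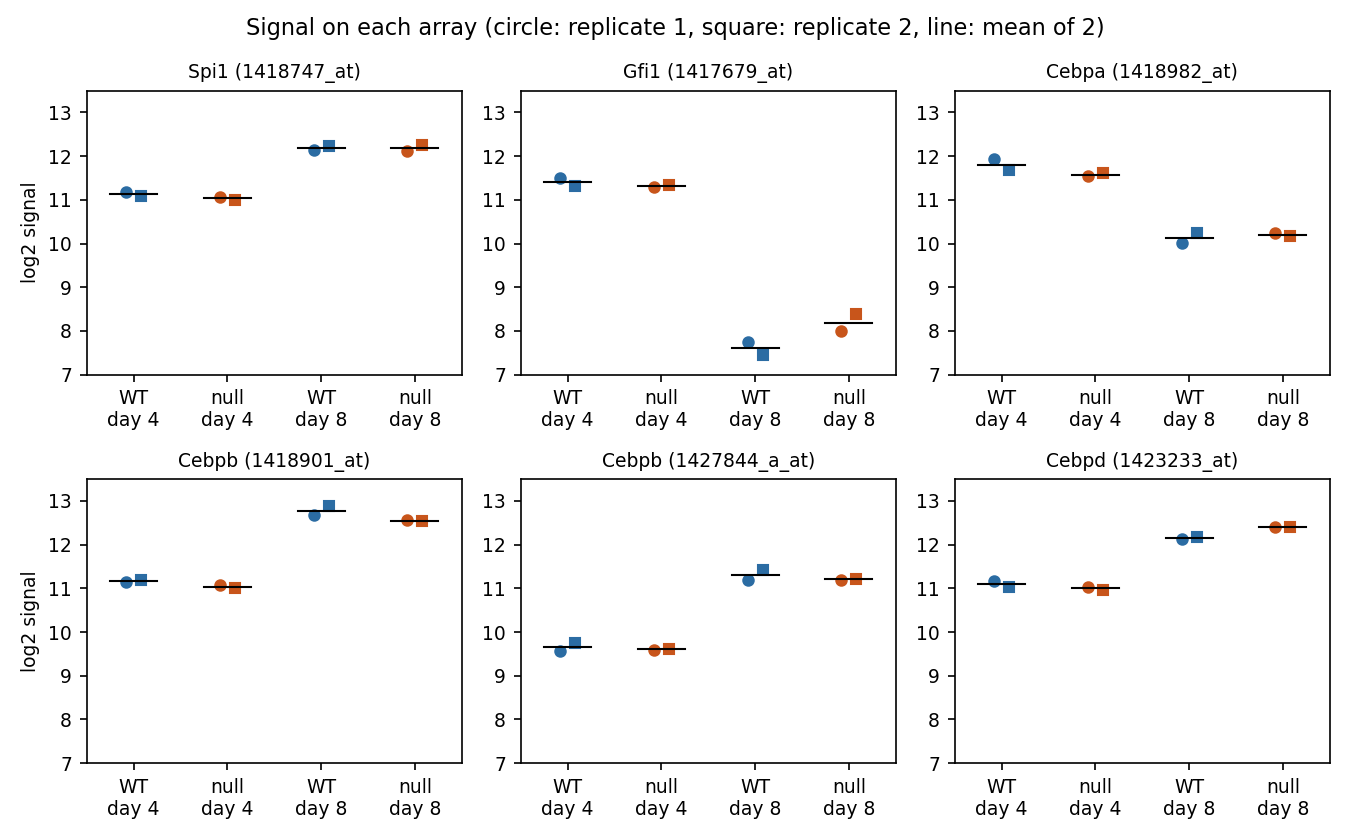
Log2 signal (vertical axis) of each probe set on the 8 arrays, by genotype and day (WT, wild type; null, miR-223 null); circles are replicate 1, squares replicate 2, lines the mean of 2 arrays. The day 8 arrays lie above the day 4 arrays for Spi1, Cebpb and Cebpd and below them for Gfi1 and Cebpa, with Gfi1 going from 11.29 or more to 8.38 or less.

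The first comparison followed maturation from the day 4 progenitor to the day 8 neutrophil. In both genotypes Spi1, Cebpb and Cebpd rose and Gfi1 and Cebpa fell. All 6 probe sets were called in wild type (4 higher, 2 lower) and in null (4 higher, 2 lower). Such calls were the rule over all probe sets, 77.2% in wild type and 75.9% in null, so the counts are close to the background and it is the sizes and directions that describe these genes. Both the members' arrays and those of most other probe sets were without overlap between the days: 6 of 6 members in each genotype, against 88.8% of all probe sets in wild type and 89.6% in null. In sorted but bulk samples, fewer cells of a type and less RNA per cell cannot be told apart.

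Gfi1 had the largest change of the 6. Wild-type arrays read 11.51 and 11.33 at day 4 and 7.75 and 7.45 at day 8. Null arrays read 11.29 and 11.34 at day 4 and 8.00 and 8.38 at day 8. All 4 progenitor arrays were thus high and all 4 neutrophil arrays low, with no overlap. The mean fell from 11.42 ± 0.13 to 7.60 ± 0.21 in wild type (SD, n = 2), a 14.1-fold fall (log2 change -3.82, SE 0.13, adjusted p = 9.7e-10). In null cells it fell from 11.31 ± 0.04 to 8.19 ± 0.27 (SD, n = 2), 8.71-fold (log2 change -3.12, SE 0.13, adjusted p = 2.9e-09). Among all tested probe sets that were lower at day 8, the fall of Gfi1 ranked 118th in wild type and 372nd in null.

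Cebpa, the C/EBP gene of early granulocyte formation, fell as well. Its wild-type arrays read 11.93 and 11.68 at day 4 and 10.02 and 10.25 at day 8. Its null arrays read 11.54 and 11.61, then 10.23 and 10.16. The day 4 arrays of both genotypes lay above every day 8 array. The fall was 3.17-fold in wild type (log2 change -1.67, SE 0.10, adjusted p = 3.2e-08) and 2.60-fold in null (-1.38, SE 0.10, adjusted p = 1.4e-07). Of all probe sets, 84.4% changed less than Cebpa in wild type and 77.0% changed less in null, in either direction.

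Spi1 rose. Its wild-type arrays read 11.19 and 11.09 at day 4 and 12.14 and 12.23 at day 8, and its null arrays 11.06 and 11.01, then 12.11 and 12.25. Replicates were at most 0.14 apart, and every day 8 array stood above every day 4 array. The rise was 2.07-fold in wild type (log2 change 1.05, SE 0.07, adjusted p = 9.8e-08) and 2.21-fold in null (1.14, SE 0.07, adjusted p = 4.5e-08). This was a moderate change for these cells, since 68.4% of probe sets changed less in wild type.

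By the estimates, Cebpb rose the most of the 3 genes that went up, and its 2 probe sets moved alike. In null cells its 95% intervals (1.36 to 1.66 at 1418901_AT, 1.41 to 1.79 at 1427844_A_AT) overlapped that of Cebpd (1.27 to 1.54). At 1418901_AT, wild-type arrays read 11.16 and 11.18 at day 4 and 12.68 and 12.88 at day 8, and null arrays 11.07 and 11.00, then 12.56 and 12.53. At 1427844_A_AT, a probe set whose suffix marks probes shared by transcript variants of a gene, wild-type arrays read 9.56 and 9.74, then 11.19 and 11.42, and null arrays 9.59 and 9.61, then 11.19 and 11.21. At either probe set the days did not overlap. In wild type the rise was 3.06-fold (log2 change 1.61, SE 0.07, adjusted p = 3.8e-09) and 3.15-fold (1.66, SE 0.09, adjusted p = 1.8e-08). In null it was 2.84-fold (1.51, SE 0.07, adjusted p = 5.2e-09) and 3.03-fold (1.60, SE 0.09, adjusted p = 2e-08). The estimates of the 2 probe sets differed by 0.04 in wild type and 0.09 in null on the log2 scale.

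Cebpd rose as well. Its wild-type arrays read 11.16 and 11.03 at day 4 and 12.12 and 12.18 at day 8. Its null arrays read 11.04 and 10.97, then 12.41 and 12.41. The 4 day 4 arrays lay close together, and the null day 8 arrays stood above the wild-type day 8 arrays. The rise was 2.08-fold in wild type (log2 change 1.05, SE 0.06, adjusted p = 4.3e-08) and 2.65-fold in null (1.40, SE 0.06, adjusted p = 4.4e-09).

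**Figure D2:**
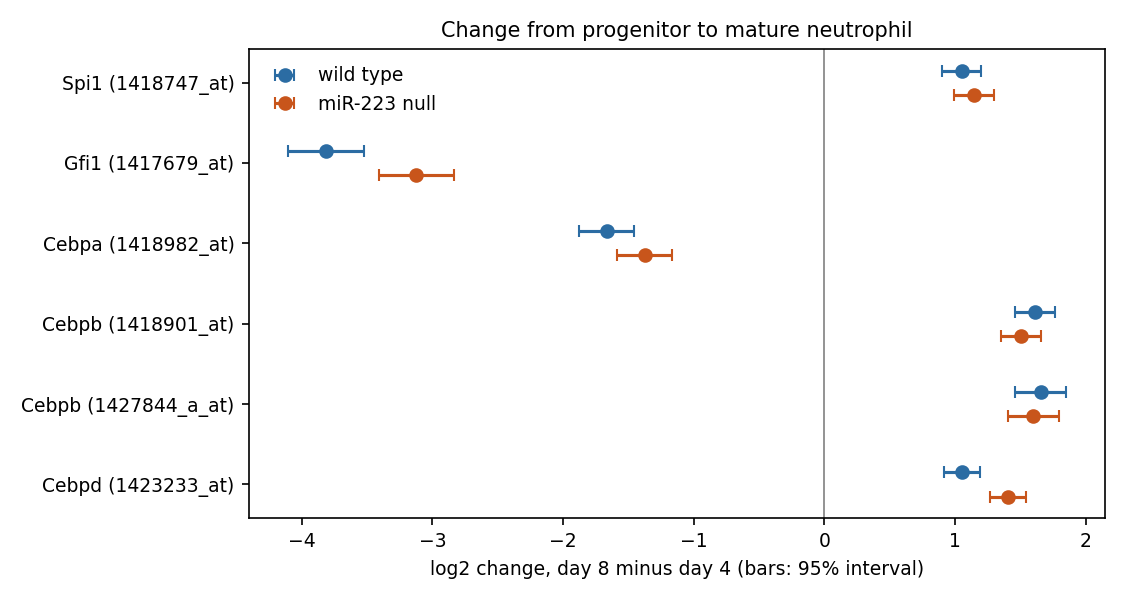
Log2 change from day 4 to day 8 (horizontal axis) for each probe set, wild type in blue and miR-223 null in orange; points are limma estimates from 2 arrays a group and bars their 95% intervals. Spi1, Cebpb and Cebpd lie between 1.05 and 1.66, Cebpa at -1.67 and -1.38, and Gfi1 at -3.82 and -3.12.

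Falling and rising genes were measured on the same arrays, and a difference between 2 probe sets of an array is not altered by scaling the whole array. On that measure, Gfi1 fell 29.2-fold relative to Spi1 in wild type and 19.2-fold in null. Cebpa fell 9.69-fold relative to Cebpb (1418901_AT) in wild type and 7.38-fold in null. Within-array differences between Spi1 and Cebpd changed by 0.00 on the log2 scale in wild type and by 0.26 in null.

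Some array-wide values moved with the day. The median change of all tested probe sets was -0.04 in wild type and 0.00 in null as deposited, and -0.21 and -0.35 when arrays were scaled to the 18 bacterial and phage hybridization control probe sets. Under that scaling all 6 changes kept their direction and call in both genotypes. Gfi1 was at -3.98 and -3.47, Cebpa at -1.83 and -1.73, Spi1 at 0.88 and 0.79, and Cebpd at 0.89 and 1.05 (wild type, then null). In the same order, Cebpb was at 1.44 and 1.16 (1418901_AT) and at 1.49 and 1.25 (1427844_A_AT). The 3' minus 5' log2 signal of the beta-actin controls, which reflects RNA integrity and labelling, lay at 0.36 to 0.44 on day 4 arrays and 0.10 to 0.17 on day 8 arrays, while that of Gapdh lay between -0.08 and 0.05 on all 8. Its part in the changes of these genes was not tested.

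The second comparison asked whether the null cells differed from wild type in these regulators at day 4. None of the 6 probe sets was called by limma at day 4 (2.72% of all probe sets were), and 1 of 6, Cebpa, had an unadjusted p below 0.05. As deposited, all 6 estimates were below 0, from -0.23 for Cebpa to -0.05 for 1427844_A_AT. Scaling to the hybridization controls moved the median difference of all tested probe sets from -0.006 to 0.086. Under that scaling Spi1 was at -0.010, Gfi1 at -0.013, Cebpd at -0.0013 and Cebpb (1418901_AT) at -0.038, and 1427844_A_AT turned to 0.046. The shared sign therefore depends on how the arrays are scaled. Cebpa read 11.93 and 11.68 in wild type against 11.54 and 11.61 in null, 1.17-fold lower without overlap (log2 difference -0.23, SE 0.10, 95% interval -0.44 to -0.02, adjusted p = 0.24). The Cebpa difference moved with single arrays and with scaling: it was -0.10 without wild-type day 4 replicate 1 (adjusted p = 0.70), -0.35 without replicate 2 (adjusted p = 0.058), and -0.14 when scaled to the hybridization controls (adjusted p = 0.60). In the values as deposited, arrays were without overlap for 3 of 6 (Cebpa, Spi1 and Cebpb at 1418901_AT), all lower in null, against 48.9% of all probe sets in either direction. The interval for Gfi1, -0.39 to 0.19, was the widest, and that for Spi1 was -0.25 to 0.05.

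The third comparison made the same contrast in the day 8 neutrophils. Gfi1 and Cebpd were higher in null cells, and Spi1, Cebpa and both Cebpb probe sets were not called. Thus 2 of 6 were called, both higher, where 5.31% of all probe sets were called and 4.09% were called higher. Each call was lost under some alternatives, 3 of 17 for Gfi1 and 11 of 17 for Cebpd. Arrays were without overlap for 3 of 6 (Gfi1, Cebpd and Cebpb at 1418901_AT), against 51% of all probe sets.

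Gfi1 was higher in null neutrophils than in wild-type ones, at 8.00 and 8.38 against 7.75 and 7.45. The lowest null array stood 0.25 above the highest wild-type array, a gap smaller than that between the replicates of either genotype (0.30 in wild type, 0.38 in null). The difference was 1.50-fold (8.19 ± 0.27 in null against 7.60 ± 0.21 in wild type, SD, n = 2; log2 difference 0.59, SE 0.13, 95% interval 0.30 to 0.88, adjusted p = 0.028). Among all tested probe sets that were higher in null, it ranked 393rd. The call was kept in 14 of 17 alternatives. Many of these leave the difference at 0.59, since they alter only the filter, the spread or the day 4 arrays. Leaving out a day 8 array moved it, to 0.74 without wild-type replicate 1 and 0.78 without null replicate 1. The call was lost without wild-type day 8 replicate 2 (0.44) and without null day 8 replicate 2 (0.40). It was also lost without the intensity trend of the model (adjusted p = 0.079). Scaled to the hybridization controls it was kept with an adjusted p of 0.049.

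Cebpd read 12.41 and 12.41 in null against 12.12 and 12.18 in wild type, so the null arrays were higher by more than the gap between replicates. The difference was 1.20-fold (12.41 ± 0.0041 against 12.15 ± 0.04, SD, n = 2; log2 difference 0.26, SE 0.06, 95% interval 0.12 to 0.40, adjusted p = 0.040). This call was kept in 6 of 17 alternatives (adjusted p from 0.020 to 0.48) and lost in 11. It was lost after quantile normalization (0.23), cyclic loess (0.22) and scaling to the hybridization controls (0.16), without the trend, without the filter on dim probe sets, and without any 1 of the 4 day 8 arrays or either null day 4 array (0.23 to 0.28). Its direction was the same in all 17, but most of these could not have turned it. Settings that alter only the filter, the spread or the day 4 arrays leave the difference at 0.26. Leaving out a day 8 array cannot turn it, since the arrays do not overlap. Under the rescalings, which could, it was 0.16 to 0.26.

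The estimates for Cebpb were below 0 at both probe sets, but not past the threshold. At 1418901_AT the null arrays (12.56 and 12.53) lay below the wild-type arrays (12.68 and 12.88), a log2 difference of -0.23 (SE 0.07, 95% interval -0.39 to -0.08, adjusted p = 0.081). It was called in 1 of 17 alternatives, without wild-type day 8 replicate 1 (-0.33, adjusted p = 0.038), and without wild-type day 8 replicate 2 it was -0.14 (adjusted p = 0.40). At 1427844_A_AT the wild-type and null arrays overlapped, and the difference was -0.10 (95% interval -0.29 to 0.09, adjusted p = 0.59). The probe sets of Cebpb therefore gave the same sign and different sizes.

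Spi1 and Cebpa did not differ beyond the spread of the arrays in neutrophils. Spi1 read 12.11 and 12.25 in null, on either side of the wild-type arrays at 12.14 and 12.23 (log2 difference -0.01, 95% interval -0.16 to 0.14, adjusted p = 0.96). Cebpa read 10.23 and 10.16 in null, between the wild-type arrays at 10.02 and 10.25 (0.06, 95% interval -0.15 to 0.27, adjusted p = 0.79). These intervals leave room for differences of up to about their bounds, and do not show that the genotypes were alike.

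**Figure D3:**
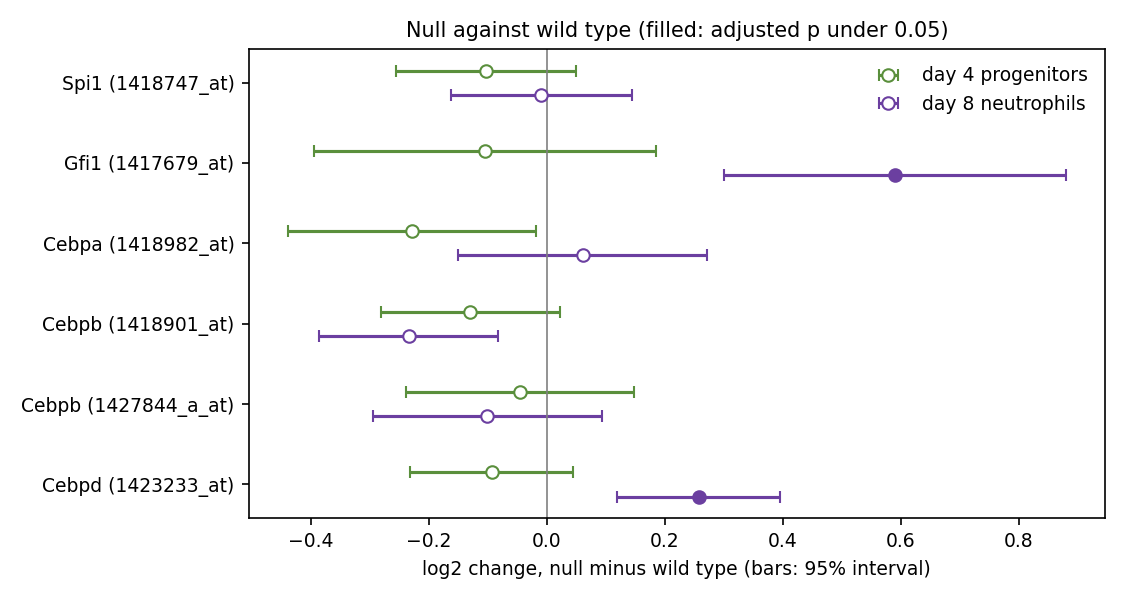
Log2 difference of null minus wild type (horizontal axis) for each probe set at day 4 (green) and day 8 (violet); points are limma estimates from 2 arrays a group, filled where the adjusted p is below 0.05, and bars are 95% intervals. Only Gfi1 (0.59) and Cebpd (0.26) at day 8 are filled.

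**Figure D4:**
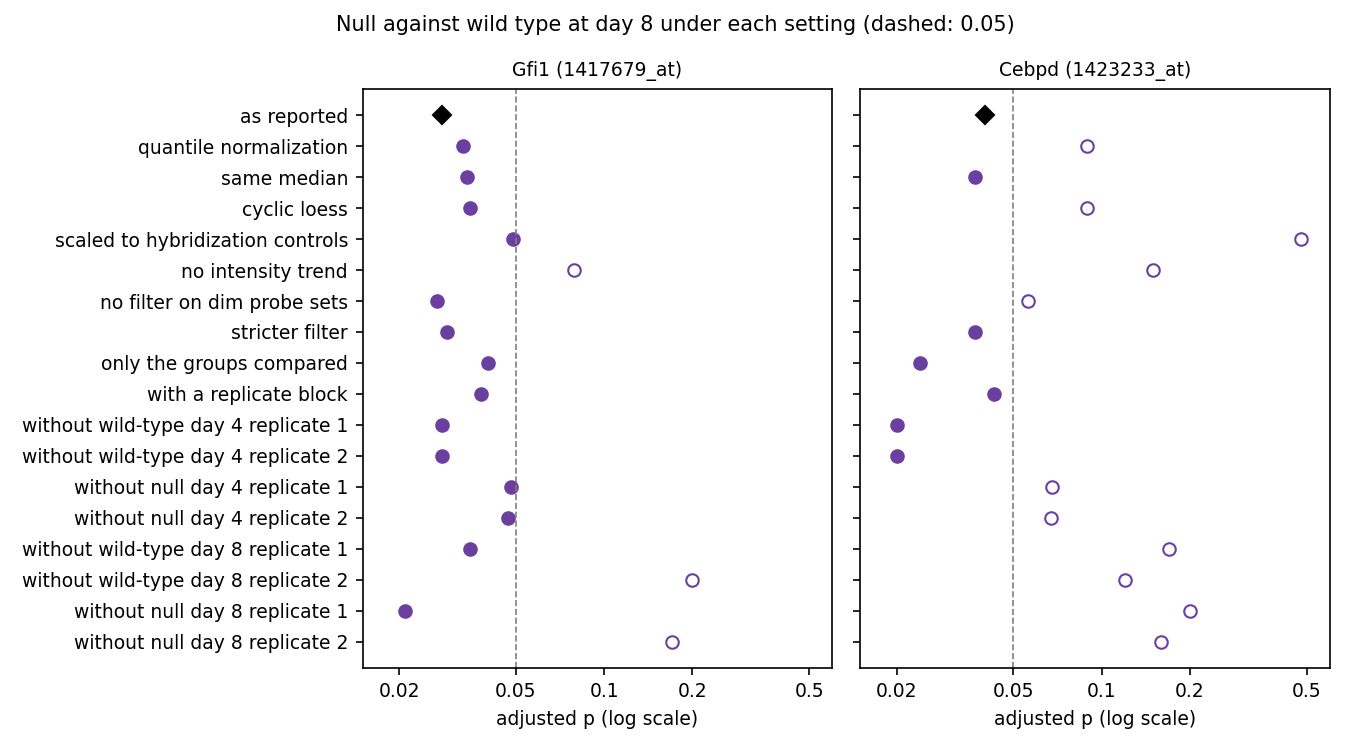
Adjusted p (horizontal axis, log scale) of null against wild type at day 8 for Gfi1 and Cebpd, as reported (black diamond) and under each of 17 alternatives (violet circles, filled below 0.05). Gfi1 lies below 0.05 in 14 of 17 and Cebpd in 6 of 17. Many of the alternatives leave the estimated difference unchanged.

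The last comparison tested whether the genotype difference itself changed between the days. It is the same as asking whether the change in signal from day 4 to day 8 differed between the genotypes. None of the 6 probe sets was called by limma (1.66% of all probe sets were), and 2 of 6, Gfi1 and Cebpd, had an unadjusted p below 0.05. For Gfi1 the null difference was 0.69 higher at day 8 than at day 4 (SE 0.19, 95% interval 0.28 to 1.10, adjusted p = 0.091), so the difference between its falls, 8.71-fold in null and 14.1-fold in wild type, did not pass the threshold. It was called in 0 of 16 alternatives (adjusted p from 0.070 to 0.25). For Cebpd the difference was 0.35 (SE 0.09, 95% interval 0.16 to 0.55, adjusted p = 0.079). It was called in 1 of 16 alternatives, without wild-type day 4 replicate 2 (0.42, adjusted p = 0.028). For Cebpa it was 0.29 (95% interval -0.01 to 0.59, adjusted p = 0.32). Spi1 and the Cebpb probe sets lay between -0.10 and 0.09.

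The order of the 4 groups followed from these values. For Spi1, Cebpb and Cebpd both day 4 groups came lowest and both day 8 groups highest, and for Gfi1 and Cebpa the reverse. Within a day, neighbouring genotypes differed past the threshold only for Gfi1 and Cebpd at day 8, with the limits given above.

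The patterns were also set beside those of all 22518 other tested probe sets, by the root mean square difference over the 8 arrays after each probe set was centred on its own mean. This measure is governed by the change between the days, and all values share the same arrays. The 2 Cebpb probe sets differed by 0.08, Spi1 and Cebpd by 0.12, and Gfi1 and Cebpa by 1.01. Of the other probe sets, 24 were nearer to 1418901_AT than 1427844_A_AT was. For Spi1, 531 were nearer than Cebpd, and for Gfi1, 2623 were nearer than Cebpa. Gfi1 had few close neighbours, with 36 probe sets within 0.25 of it. The counts were 1531 for Cebpa, 2837 for Spi1, 2158 for Cebpd, and 1283 (1418901_AT) and 1243 (1427844_A_AT) for Cebpb. Few probe sets fell as far as Gfi1, so at a fixed distance its count is not separate from the size of its fall. The nearest to Gfi1 was 1417883_AT (0.13), the nearest to Cebpa 1423569_AT (0.09), the nearest to Spi1 1420609_AT (0.04) and the nearest to Cebpb (1418901_AT) 1436562_AT (0.04), none of which is paired with a gene here.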

How the data were processed

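The deposited table holds 1 value per array for 45101 probe sets, 64 of them controls. The log base of these deposited values is not stated, and they were taken as log2 from their range. GCOS, the scanner software, is named without a version in the submitters' processing notes, and the summarization, background correction and normalization are not stated in the labels or the table header. The array medians lay between 5.44 and 5.49, so values were analysed as deposited. A normalization that equalizes arrays would remove a change in total messenger RNA per cell.

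Controls were left out, and the 22519 probe sets with a mean at or above the median of all (5.51) were tested. A linear model with 4 group means was fitted in limma 3.58.1 (lmFit, eBayes with an intensity trend; R 4.3.3; 4 residual degrees of freedom). Tests were two-sided with Benjamini-Hochberg adjustment over all 22519 within each of 5 comparisons. The steps were tested on simulated data. For arrays, their number limits the precision. Groups came from the titles. Replicate numbers were not taken to mark pairs: deviations of same-numbered arrays correlated at -0.05 to 0.22. Up to 17 alternatives were tried. All 6 probe sets were named, and for likeness the nearest probe set. The members and lists were chosen with earlier results of these data known, and lists of other regulators and cell type markers were not tested, since their probe sets could not be named.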

Additional observations from a re-analysis of the deposited data

How the results depend on the processing

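All 12 maturation changes kept their direction and call in 17 alternatives, and 6 of 6 probe sets were called in each genotype. In null against wild type at day 4, 0 of 6 were called in all 17. At day 8 the count of 2 went to 1 after quantile normalization, cyclic loess, scaling to the hybridization controls and with no filter on dim probe sets, to 0 with no intensity trend, and to between 0 and 2 when an array was left out. The count for the change between the days was 0, and 0 to 1 when an array was left out. Where an array was left out, the remaining array of its group was assumed to vary like the other groups. A replicate block left the counts at 0 (day 4), 2 (day 8), 6, 6 and 0, and changed no call.

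Of 504 values of single probe sets, 10 changed sign, none of which belonged to a called change. The arrays of every called change were without overlap, so leaving out an array could not turn its sign. Refits that alter only the filter or the spread keep the estimate, so only rescaling could have turned a called change. With hybridization scaling the values that changed sign were Cebpb (1427844_A_AT) at day 4 (0.046), Cebpa at day 8 (-0.032) and Spi1 between the days (-0.091). The others came from leaving out an array. Cebpb (1427844_A_AT) then ranged from -0.14 to 0.045 at day 4, from -0.21 to 0.013 at day 8 and from -0.17 to 0.059 between the days, with the sign turned without wild-type day 4 replicate 2 (day 4), wild-type day 8 replicate 2 (day 8), and either of wild-type day 4 replicate 1 and wild-type day 8 replicate 2 (between the days). Spi1 at day 8 ranged from -0.080 to 0.062 (turned without wild-type day 8 replicate 2 or null day 8 replicate 1), and Cebpa at day 8 from -0.054 to 0.18 (turned without wild-type day 8 replicate 1). The cause was not tested.

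The background counts of all probe sets moved more: 98 to 1674 (613 as reported) at day 4, 355 to 1691 (1195) at day 8 and 48 to 893 (373) between the days.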
